A study of Mus musculus with 16 samples.

Results

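The genes described here are the 3 NR4A nuclear receptors (Nr4a1, Nr4a2 and Nr4a3), the kinase Sik1, the transcription factor Crem and the gene model Gm43605, measured by RNA-seq of neonatal mouse heart ventricles. They are 6 of the 51912 gene identifiers in the expression table and were chosen by name, because Nr4a3, Sik1 and Gm43605 had their highest levels in wild-type sham hearts. All 6 were among the 20159 genes expressed highly enough to be tested, that is, whose counts summed to 10 or more within every group. The levels in wild-type sham hearts therefore chose the genes, and every contrast with that group is given below as a description without a test. The comparisons with a test are those between the other groups. The 6 genes and the lists below were chosen with earlier results of these data known, so these tests may not be free of that choice.

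The study asked how loss of Lrrc10, which encodes a leucine-rich repeat protein of cardiomyocytes, alters the regenerating neonatal heart. Mice on a C57BL/6 background were either wild type (WT) or whole-body Lrrc10 knockout (KO, Lrrc10-/-). At postnatal day 1 they received a sham operation (SH), in which the chest was opened but no artery was tied, or a myocardial infarction (MI) by ligation of the left anterior descending coronary artery. The full ventricles, from above and below the ligation, were taken 7 days after surgery, giving 4 groups (WT SH, WT MI, KO SH and KO MI) of 4 libraries. All 16 libraries were strand-specific, rRNA-depleted total RNA libraries of whole ventricle, so fewer cells of a type and less RNA per cell cannot be told apart. Because the knockout is in the whole body, it also covers cells other than cardiomyocytes. The labels do not say whether mice of a group shared a litter, and all p-values measure the spread between libraries.

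The library totals ranged from 33783874 to 57470159 counts. Lrrc10 had 1075 to 1850 counts in the WT libraries and 0 in all 8 KO libraries, where 3 counts would correspond to 0.0578 to 0.081 CPM (counts per 1000000 counts of the library, after TMM scaling). The labels describe the groups as sex-balanced, but all 4 WT SH libraries read as male (6.18 to 9.77 CPM of Xist and 160 to 165 CPM over 4 Y-linked genes), whereas each of the other groups held 2 libraries that read as female. Markers of ventricular cardiomyocytes were high throughout (10 of 10 detected, summed level 30301 to 43948 CPM). The summed endothelial markers were higher in WT SH (8 of 8 detected, 999 to 1035 CPM) than in the 12 other libraries (780 to 972 CPM), and the 6 neutrophil markers, 2 of which reached a mean of 1 CPM, were lower (0.936 to 1.73 CPM against 2.67 to 16.8 CPM). Of the adipocyte markers Lep and of the lung markers Scgb1a1 were at 0 in every library. The summed adipocyte markers reached 4.31 CPM in KO MI and at most 0.237 CPM in the other groups. The summed lung markers reached 1.02 CPM in KO MI and at most 0.104 CPM in the other groups. One library, KO MI-2, stood apart with 2437 CPM of atrial markers. KO MI-3 (865 CPM) and KO MI-1 (352 CPM) came next, and KO MI-7 measured 169 CPM. The 12 libraries of the other groups measured 57.4 to 235 CPM. The part of sex or of endothelial, neutrophil, atrial, adipocyte or lung RNA in the levels below was not tested beyond the values given beside them.

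The NR4A receptors are orphan nuclear receptors of the immediate early class: their structure leaves no room for a classical ligand, and their activity is set largely by how much of them is made. In many tissues, the heart under beta-adrenergic stimulation included, they are induced within minutes to hours by cyclic AMP, calcium and stress. A main route runs through protein kinase A to the transcription factor CREB, which binds the cyclic AMP response element (CRE). CREB with its CRTC coactivators also induces Sik1, whose kinase phosphorylates the CRTC proteins and class IIa histone deacetylases, closing a feedback loop. Crem encodes relatives of CREB, some of which, such as the inducible repressor ICER, switch CRE-driven genes off again.

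The promoters of the 3 receptors are shown because each holds several copies of the letters at the core of a CRE. RefSeq promoter windows on GRCm38.p6 were at hand for Nr4a1, Nr4a2 and Nr4a3 and not for Sik1, Crem or Gm43605. The stretches of Nr4a1 and Nr4a3 were not found in the spliced sequence of their annotated transcripts. That search does not show whether a stretch lies in an intron of a longer transcript. The short stretch of Nr4a2 lies within an annotated transcript that begins further upstream. All are written 5′ to 3′ on the strand of the gene and carry the CRE core (TGACG, or CGTCA where it lies on the opposite strand) in capitals. Bases are counted back from the RefSeq start. The Nr4a1 stretch lies at chr15:101266596-101266775 on the plus strand (base -250 to -71), that of Nr4a2 at chr2:57124120-57124149 on the minus strand (base -146 to -117) and that of Nr4a3 at chr4:48045055-48045152 on the plus strand (base -250 to -153).
Nr4a1: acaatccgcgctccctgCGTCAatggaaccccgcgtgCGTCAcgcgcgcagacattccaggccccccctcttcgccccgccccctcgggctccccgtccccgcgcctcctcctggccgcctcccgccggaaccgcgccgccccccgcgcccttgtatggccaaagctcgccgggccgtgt
Nr4a2: cgCGTCAcggagcccggccgggcTGACGgg
Nr4a3: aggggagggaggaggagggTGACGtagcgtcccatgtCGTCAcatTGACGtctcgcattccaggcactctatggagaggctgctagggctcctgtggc

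In the whole 250 bases before the start, each receptor had 4 CRE cores on either strand. Those of Nr4a1 began at bases -233, -213, -69 and -40, those of Nr4a2 at -200, -144, -123 and -111, and those of Nr4a3 at -231, -213, -205 and -147. At least 1 core was found in 17.8% of the 32851 mouse promoter windows of that length, at least 2 in 3.9%, at least 3 in 0.688% and at least 4 in 0.137%. The full palindromic CRE (TGACGTCA), which contains the core on both strands, was in none of the 3 windows and in 1.55% of all windows. The NR4A response element NBRE (AAAGGTCA) was likewise in none of the 3 and in 1.34% of all. The letters TATAAA were in the Nr4a2 window only (base -164 to -159, opposite strand) and in 12.4% of all windows, while CCAAT (33.8% of all windows) and the CArG box bound by SRF (1.47%) were in none of the 3. These windows are rich in G and C (74.4%, 80.0% and 63.6% for Nr4a1, Nr4a2 and Nr4a3), and a match of letters is not a measurement of binding.

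**Figure D1:**
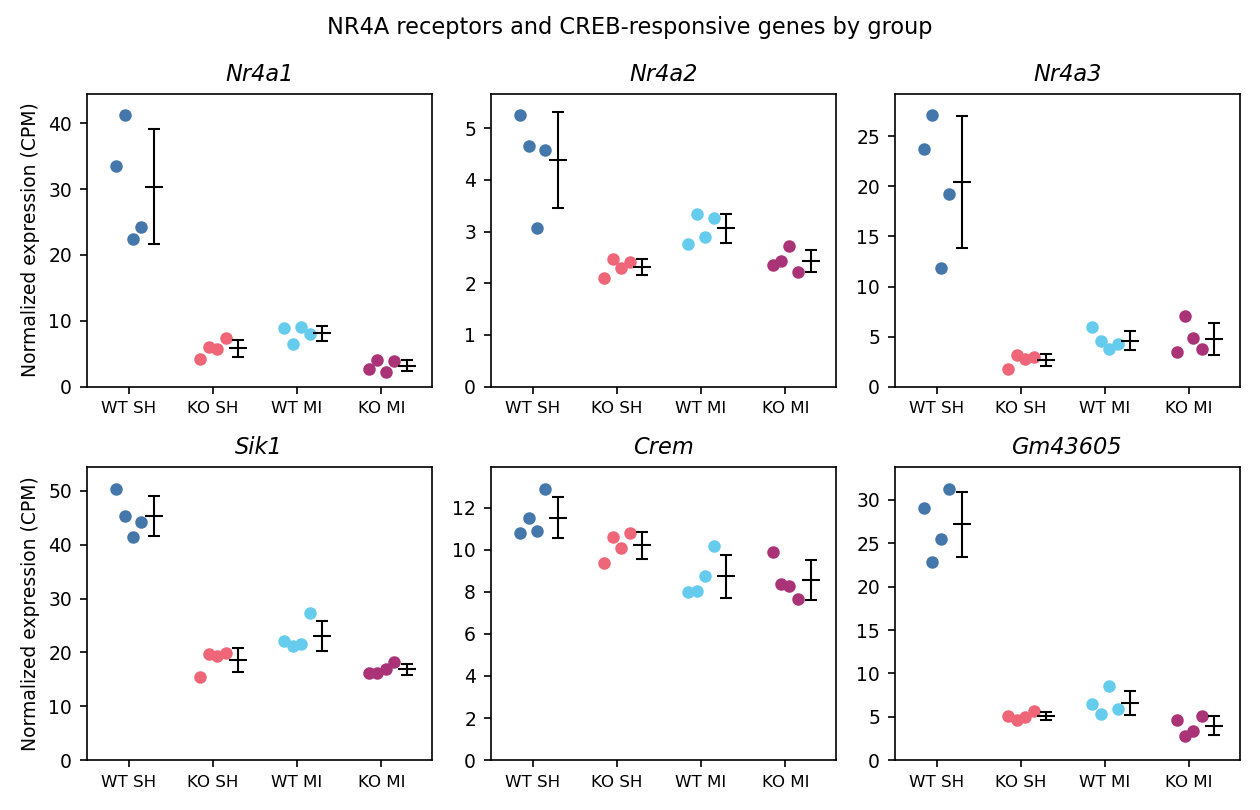
Normalized expression (CPM, linear axes from 0) of the 6 genes in the 16 libraries, 4 points per group, with the mean and SD beside the points as a black mark and bar. The WT SH points of Nr4a1, Nr4a3, Sik1, Crem and Gm43605 lie above all 12 other libraries, narrowly so for Crem, and those of Nr4a2 overlap WT MI.

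Nr4a1 (chr15:101151980-101172681 on GRCm39, plus strand) measured 33.5, 41.2, 22.4 and 24.3 CPM in the 4 WT SH libraries, and 4.19, 6.02, 5.72 and 7.37 CPM in KO SH. After MI it measured 8.87, 6.41, 9.0 and 8.01 CPM in WT and 2.62, 4.0, 2.27 and 3.93 CPM in KO. All WT SH libraries were thus far above the others, and the order of the group means was WT SH (30.4 ± 8.68, SD, n = 4), WT MI (8.07 ± 1.19), KO SH (5.83 ± 1.3) and KO MI (3.21 ± 0.887). WT MI and KO SH overlapped, and KO MI lay below every library of the other groups.

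Nr4a2 (chr2:56996842-57014331, minus strand), a receptor best known from dopaminergic neurons, was the least abundant of the 3. It measured 5.25, 4.65, 3.06 and 4.57 CPM in WT SH and 2.10, 2.46, 2.29 and 2.41 CPM in KO SH. After MI it measured 2.75, 3.34, 2.90 and 3.26 CPM in WT and 2.36, 2.44, 2.72 and 2.22 CPM in KO. One WT SH library fell within the WT MI range, so Nr4a2 was the only one of the 6 genes for which WT SH did not stand clear. Both WT groups lay above both KO groups, KO MI (2.43 ± 0.210, SD, n = 4) and KO SH (2.32 ± 0.161) overlapped, and the means of WT SH and WT MI were 4.38 ± 0.932 and 3.06 ± 0.279 CPM.

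Nr4a3 (chr4:48045153-48086447, plus strand) measured 23.7, 27.1, 11.8 and 19.2 CPM in WT SH and 1.78, 3.13, 2.80 and 2.99 CPM in KO SH. After MI it measured 5.95, 4.54, 3.73 and 4.21 CPM in WT and 3.44, 7.03, 4.82 and 3.77 CPM in KO. Here the lowest group was KO SH (2.67 ± 0.612, SD, n = 4), below both infarcted groups without overlap. WT MI (4.61 ± 0.953) and KO MI (4.76 ± 1.62) could not be ordered, and WT SH stood at 20.5 ± 6.63 CPM.

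Sik1 (chr17:32058850-32074818, minus strand) measured 50.4, 45.4, 41.4 and 44.2 CPM in WT SH and 15.4, 19.8, 19.3 and 19.9 CPM in KO SH. After MI it measured 22.2, 21.2, 21.5 and 27.3 CPM in WT and 16.1, 16.2, 16.9 and 18.3 CPM in KO. The spread within groups was small (coefficient of variation 5.93% to 12.5%, against 14.7% to 34% for Nr4a1 and Nr4a3). WT SH (45.4 ± 3.75, SD, n = 4), WT MI (23.1 ± 2.88) and KO SH (18.6 ± 2.16) followed each other without overlap, and KO MI (16.9 ± 1.0) overlapped KO SH.

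Crem (chr18:3260980-3337748, minus strand) varied least between groups. It measured 10.8, 11.5, 10.9 and 12.9 CPM in WT SH and 9.36, 10.6, 10.1 and 10.8 CPM in KO SH. After MI it measured 7.97, 8.03, 8.73 and 10.2 CPM in WT and 9.88, 8.39, 8.27 and 7.65 CPM in KO. The lowest WT SH library and the highest KO SH library differed by less than the rounding of these values, and the other neighbours in the order (KO SH 10.2 ± 0.632, WT MI 8.73 ± 1.04 and KO MI 8.55 ± 0.946, SD, n = 4) overlapped. One count per gene holds the activators and the repressor ICER together, so which Crem products were present was not measured. The antisense gene model Gm6225 shares 788 exon bases with Crem on the opposite strand. The libraries were strand-specific, but whether strand was used in counting was not given in the sources used here, so reads of the shared bases may be counted for either gene.

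Gm43605 (chr5:51668210-51671635, minus strand) is a single-exon model of 3426 bases with the annotation class TEC, that is, still to be experimentally verified. It measured 29.1, 22.9, 25.5 and 31.3 CPM in WT SH and 5.07, 4.65, 4.99 and 5.72 CPM in KO SH. After MI it measured 6.43, 5.36, 8.55 and 5.89 CPM in WT and 4.68, 2.83, 3.32 and 5.06 CPM in KO. WT SH (27.2 ± 3.76, SD, n = 4) stood clear of the other groups, whose means were 6.56 ± 1.40 (WT MI), 5.11 ± 0.448 (KO SH) and 3.97 ± 1.06 (KO MI), each overlapping the next.

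All 4 WT SH libraries lay above all 12 others for 5 of the 6 genes, a pattern found in 1.44% of the 20159 genes tested (291 genes). Since the genes were chosen for this pattern, nothing is read from the count. The male WT SH libraries can also be set beside the 6 male libraries of the other groups alone. There Nr4a1 measured 2.27 to 9.0 CPM, Nr4a3 2.80 to 5.95 CPM, Sik1 16.9 to 22.2 CPM and Gm43605 3.32 to 8.55 CPM, all below every WT SH library. For these genes that order follows from the one over all 12 other libraries, so the part of sex was not tested by it. Nr4a2 (2.22 to 2.90 CPM) also lay below WT SH there (3.06 to 5.25 CPM). Crem (7.65 to 10.8 CPM) came level with the lowest WT SH library (10.8 CPM) after rounding. Per kilobase of the canonical transcript, the mean WT SH level was 11.9 CPM per kb for Nr4a1, 7.94 for Gm43605, 5.08 for Sik1, 3.86 for Crem, 3.58 for Nr4a3 and 0.92 for Nr4a2. Per kilobase of all annotated exons Nr4a1 came to only 2.78 CPM per kb, and Nr4a2 was the lowest under both lengths (0.534 CPM per kb).

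The fitted size of the KO SH difference from WT SH was largest for Nr4a3, at a log2 fold change of -2.94 (SE 0.26), or 7.69-fold lower. Gm43605 followed with -2.42 (SE 0.17), Nr4a1 with -2.39 (SE 0.21), Sik1 with -1.29 (SE 0.09), Nr4a2 with -0.93 (SE 0.14) and Crem with -0.18 (SE 0.09). Of the 6 genes, 5 passed the thresholds used here for a differentially expressed gene (DEG), an adjusted p below 0.1 with a log2 fold change of 0.5 or more in size, as did 5.01% of all genes tested. In WT MI compared to WT SH the log2 fold change was -2.15 (SE 0.25) for Nr4a3, -2.06 (SE 0.16) for Gm43605, -1.91 (SE 0.20) for Nr4a1, -0.98 (SE 0.09) for Sik1, -0.52 (SE 0.14) for Nr4a2 and -0.40 (SE 0.09) for Crem. Again 5 of 6 passed the thresholds, against 2.78% of all genes. These contrasts share the WT SH libraries and chose the genes, so both counts are descriptions. Nr4a2 fell under the minimum size in WT MI compared to WT SH when WT SH-1, WT SH-2, WT MI-1 or WT MI-3 was left out, reaching -0.42 without WT SH-1.

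The effect of Lrrc10 loss after MI was measured between KO MI and WT MI, neither of them the group whose high levels chose the genes. Nr4a1 and Gm43605 were DEGs, both lower in KO MI, compared with 1.73% of all genes called in this comparison and 1.16% called lower. Nr4a1 was 2.53-fold lower, with a log2 fold change of -1.34 (SE 0.22, adjusted p = 0.00288, edgeR's quasi-likelihood F-test, Benjamini-Hochberg adjusted over all genes). Every KO MI library (2.27 to 4.0 CPM) lay below every WT MI library (6.41 to 9.0 CPM). Gm43605 was 1.66-fold lower, with a log2 fold change of -0.73 (SE 0.17, adjusted p = 0.0308 by the same edgeR test). Its adjusted p by edgeR was 0.118 without WT MI-3, its highest WT MI library, and 0.193 when only these 8 libraries were fitted.

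Sik1 had an adjusted p of 0.0167 by edgeR in KO MI compared to WT MI, but its log2 fold change of -0.45 (SE 0.09) was under the minimum size for a DEG. The other receptors and Crem did not pass: the log2 fold change was -0.33 (SE 0.14, adjusted p = 0.335) for Nr4a2, 0.05 (SE 0.25, adjusted p = 0.966) for Nr4a3 and -0.03 (SE 0.10, adjusted p = 0.947) for Crem, all by edgeR. Nr4a1, Nr4a2, Sik1 and Gm43605 each had all 4 KO MI libraries below all 4 WT MI libraries, which 3.73% of all genes did. An exact two-sided permutation test over the 8 libraries gave p = 0.0286 for each of these 4 genes, the smallest value that 4 against 4 allows. The same exact permutation test gave p = 0.971 for Nr4a3 and p = 0.743 for Crem. In all, 12 such tests of single genes and 2 of a ratio (given with Gm43605) were made, without adjustment.

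MI in Lrrc10-/- hearts was measured between KO MI and KO SH, which shares the KO MI libraries with the comparison above. Nr4a1 and Nr4a3 were DEGs in opposite directions, compared with 7.42% of all genes called, 5.31% higher and 2.11% lower. Nr4a1 was 1.82-fold lower in KO MI, with a log2 fold change of -0.87 (SE 0.22, adjusted p = 0.0193 by edgeR). Nr4a3 was higher in KO MI, with a log2 fold change of 0.84 (SE 0.27, adjusted p = 0.0485 by edgeR). Both pairs of groups lay apart without overlap, from 4.19 down to 4.0 CPM for Nr4a1 and from 3.13 up to 3.44 CPM for Nr4a3 between the nearest libraries. Of all genes, 7.24% lay apart in this way with KO MI lower and 7.68% with KO MI higher. The exact two-sided permutation test gave p = 0.0286 for both.

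The rise of Nr4a3 rested on single libraries. Without KO SH-1, its lowest library, the log2 fold change was 0.69 and the adjusted p by edgeR 0.146. Without KO MI-2, its highest KO MI library and the one with 2437 CPM of atrial markers, it was 0.59 with an adjusted p of 0.209 by edgeR. The fall of Nr4a1 passed the thresholds when any 1 of the 16 libraries was left out, with adjusted p up to 0.0713 by edgeR.

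For the other 4 genes KO MI and KO SH were not told apart by both thresholds. The log2 fold change was 0.08 (SE 0.14, adjusted p = 0.793) for Nr4a2, -0.14 (SE 0.09, adjusted p = 0.376) for Sik1, -0.25 (SE 0.10, adjusted p = 0.0975) for Crem and -0.37 (SE 0.17, adjusted p = 0.178) for Gm43605, all by edgeR. Gm43605 passed when KO MI-7 was left out (-0.50, adjusted p = 0.0495 by edgeR). The exact permutation test gave p = 0.429, 0.229, 0.0571 and 0.171 for these 4 genes in turn.

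**Figure D2:**
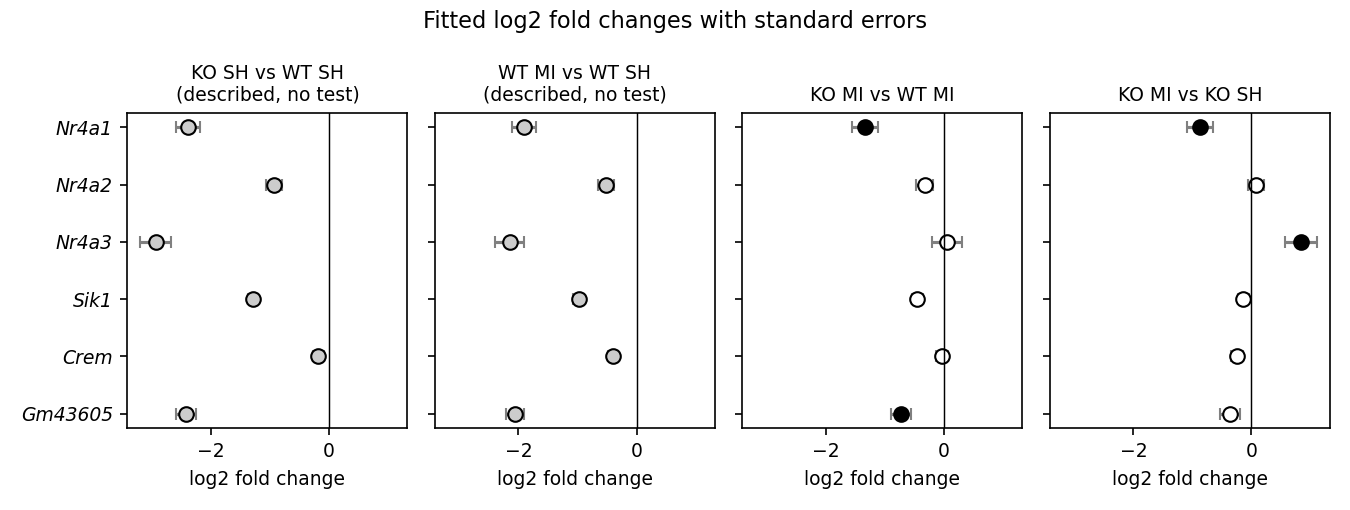
Fitted log2 fold changes of the 6 genes (points) with standard errors (bars) in the 4 comparisons, all on one axis. Gray points mark the contrasts with WT SH, which chose the genes; filled black points are DEGs and open points are not: Nr4a1 (-1.34) and Gm43605 (-0.73) in KO MI vs WT MI, Nr4a1 (-0.87) and Nr4a3 (0.84) in KO MI vs KO SH.

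Gm43605 lies wholly within an intron of Ppargc1a (chr5:51611592-51725068, minus strand), the gene of the coactivator PGC-1alpha, which drives mitochondrial biogenesis and is itself a CREB target. Of the 15 exon blocks of Ppargc1a, 3 lie upstream and 12 downstream of Gm43605, the nearest at 34218 and 12639 bases, and none shares a base with it. Both lie on the same strand, so reads of unspliced Ppargc1a RNA and of a separate Gm43605 transcript cannot be told apart in gene counts. Expressed as a percent of Ppargc1a counts, Gm43605 was at 19.7%, 22.6%, 18.0% and 22.1% in the 4 WT SH libraries (20.6% ± 2.13, SD, n = 4). It was at 4.82% to 6.10% in KO SH, 4.57% to 5.78% in WT MI and 4.14% to 5.63% in KO MI, so that the 12 other libraries shared one narrow range with none near WT SH.

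Ppargc1a itself did not show this separation. It measured 101 to 148 CPM in WT SH, 93.8 to 99.9 CPM in KO SH, 92.8 to 165 CPM after MI in WT and 68.4 to 109 CPM after MI in KO, with WT SH and WT MI overlapping. Between KO MI and WT MI, where both genes were DEGs, their ratio differed by -0.12 on the log2 scale (exact two-sided permutation p = 0.314). Between KO MI and KO SH it differed by -0.14 (exact permutation p = 0.286). With group means subtracted, the log2 levels of Gm43605 and Ppargc1a followed each other over the 16 libraries (Pearson r = 0.84, Spearman rho = 0.84, r = 0.80 without the 2 farthest libraries), both genes being measured in the same libraries.

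TEC models, many of which are single-exon models, were not higher in WT SH as a class. The 2953 others together took 0.775% to 0.998% of the non-mitochondrial counts in WT SH and 0.765% to 1.04% in the other groups. The nuclear noncoding RNA Malat1 measured 15678 to 16978 CPM in WT SH, inside the range of the others (14319 to 18010 CPM). Neat1, the RNA scaffold of nuclear paraspeckles, did stand apart, with 507 to 560 CPM in WT SH against 267 to 401 CPM in the other 12 libraries. These sums were taken after the values of Gm43605 were seen.

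**Figure D3:**
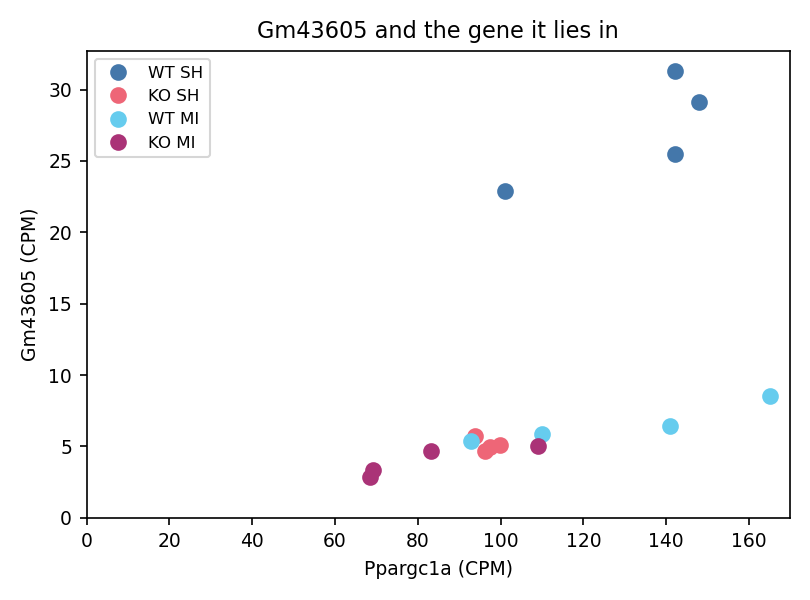
Gm43605 against Ppargc1a in each of the 16 libraries, both in CPM on linear axes from 0, colored by group. The 12 libraries of KO SH, WT MI and KO MI lie along one low band in which Gm43605 is 4.14% to 6.10% of Ppargc1a counts, and the 4 WT SH libraries lie far above it at 18.0% to 22.6%.

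Other genes of the pathway were taken from lists of named genes, which were chosen with earlier results of these data known. Of 19 further genes known to be induced through CREB, 16 were expressed highly enough to test. In KO MI compared to WT MI 5 of the 16 were DEGs, all lower, where 1.16% of all genes were called lower. The median log2 fold change over the 16 was -0.24 beside 0.008 over all genes. The 5 DEGs were Dusp1, Rgs2, Gem, Ppargc1a and Fos. Dusp1, the phosphatase that switches off MAP kinases, measured 25.3, 21.3, 25.4 and 21.7 CPM in WT MI and 15, 12.2, 12.2 and 12.4 CPM in KO MI, a log2 fold change of -0.86 (SE 0.09, adjusted p = 5.88e-05 by edgeR). Rgs2, which shortens signaling by G proteins, measured 19.2, 22.9, 19.9 and 16.4 CPM in WT MI and 8.99, 6.24, 7.46 and 11.6 CPM in KO MI, a log2 fold change of -1.20 (SE 0.20, adjusted p = 0.00355 by edgeR). For both genes the groups did not overlap.

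Gem, a small GTPase that restrains L-type calcium channels, had a log2 fold change of -0.69 (SE 0.18, adjusted p = 0.0517 by edgeR). Ppargc1a was at -0.63 (SE 0.16, adjusted p = 0.0613 by edgeR) and Fos, a subunit of AP-1, at -1.20 (SE 0.34, adjusted p = 0.0872 by edgeR). Each of these 3 lost its call when single libraries were left out. The adjusted p by edgeR then reached 0.147 for Gem without WT MI-4, 0.22 for Ppargc1a without WT MI-3 and 0.238 for Fos without WT MI-3. Dusp1 and Rgs2 kept their calls in all 28 alternative fits.

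In KO SH compared to WT SH, 9 of the same 16 genes were DEGs and all were lower, with a median log2 fold change of -0.61 beside 0.005 over all genes. The contrast is the one that chose the 6 genes, and 2.53% of all genes were called lower in it. The 3 with the smallest p were Irs2 (-1.82, SE 0.20), Gem (-1.45, SE 0.18) and Dusp1 (-0.54, SE 0.09, or -0.48 and under the minimum size without WT SH-1). Only 8 genes of all lists together passed without WT SH-1, compared with 13 with it. Irs2, an adaptor of the insulin receptor, measured 77.4, 68.3, 52.8 and 57.4 CPM in WT SH and 10.7 to 27.9 CPM in the 12 other libraries without overlap. In WT MI compared to WT SH 3 of 16 were DEGs, all lower: Irs2 (-1.53, SE 0.20), Per1 (-0.66, SE 0.13), a repressor of the circadian clock, and Gem (-0.75, SE 0.17), with a median of -0.16 beside -0.004 over all genes, of which 0.645% were called lower.

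In KO MI compared to KO SH the list was close to level, with a median log2 fold change of -0.04 beside -0.010 over all genes. Of all genes 7.42% were called, and of the list 1 of 16. That gene, Dio2, encodes the deiodinase that activates thyroid hormone. It was higher in KO MI, with a log2 fold change of 1.23 (SE 0.22, adjusted p = 0.00238 by edgeR) and group means of 12.1 ± 5.13 against 5.21 ± 0.576 CPM (SD, n = 4).

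**Figure D4:**
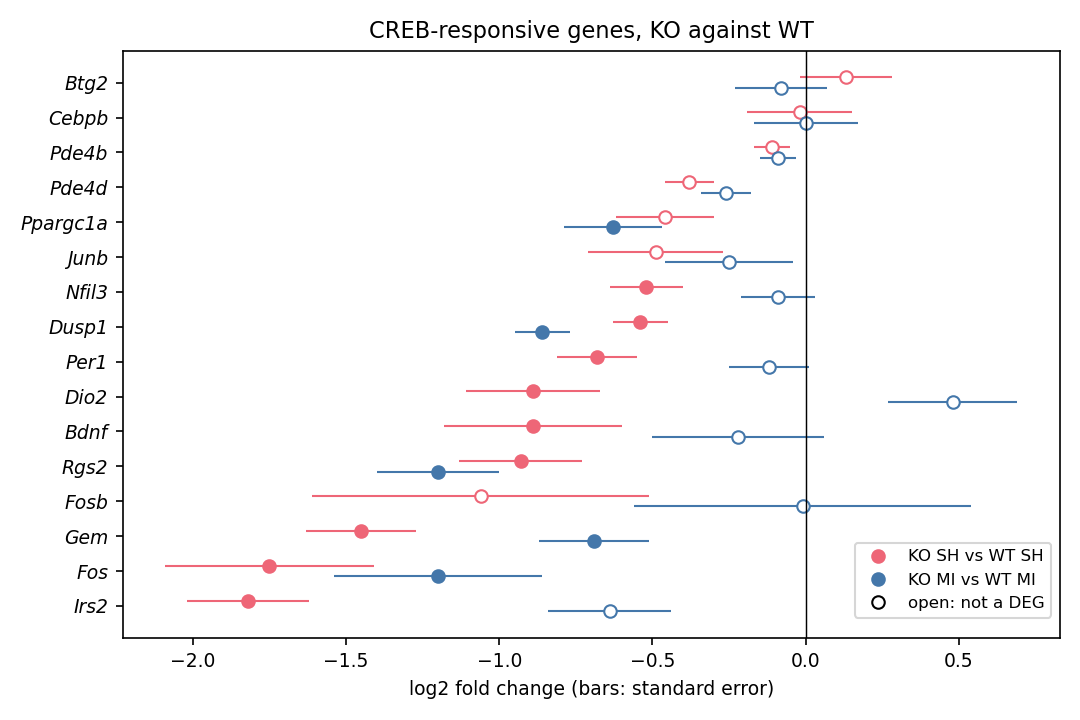
Fitted log2 fold changes (points) and standard errors (bars) of the 16 tested CREB-induced genes, KO against WT in sham hearts and in infarcted hearts, ordered by the sham value. Filled points are DEGs: 9 genes in sham hearts, from Nfil3 (-0.52) to Irs2 (-1.82), and 5 in infarcted hearts, while Dio2 was at 0.48 in infarcted hearts and not a DEG there.

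In KO MI compared to WT MI, the median log2 fold change of 20 immediate early genes outside the CREB list was -0.10, with 14 below 0. At an unadjusted p under 0.05 were 5 of the 20, beside 12.4% of all genes. Of these 20, 1 was a DEG, beside 1.73% of all genes. This was Klf4, a zinc finger factor of stem cells and endothelium, at 19.5, 26.5, 18.2 and 27.8 CPM in WT MI and 13.4, 11.9, 14.7 and 12.2 CPM in KO MI, a log2 fold change of -0.82 (SE 0.12, adjusted p = 0.00119 by edgeR). In KO MI compared to KO SH, Socs3, an inhibitor of cytokine signaling, was higher (0.66, SE 0.17, adjusted p = 0.0203 by edgeR) and Jun was lower (-0.71, SE 0.19, adjusted p = 0.0225 by edgeR). Of all genes, 5.31% were called higher there and 2.11% lower. Socs3 fell under the minimum size without KO MI-3 (0.49). In KO SH compared to WT SH the median log2 fold change of the 20 was -0.24, with 15 below 0. There 2 were DEGs, beside 5.01% of all genes. They were Klf4 (-1.18, SE 0.12) and the little expressed Egr3 (-1.34, SE 0.36, 4 to 35 counts per library in these groups). In WT MI compared to WT SH 0 were DEGs by edgeR or DESeq2, with 3 of 20 at an unadjusted p under 0.05, as were 16.5% of all genes. Egr1, the most studied gene of the class, measured 26.6 ± 11.6 CPM in WT SH, 22.7 ± 5.63 in KO SH, 24.5 ± 5.62 in WT MI and 19.7 ± 7.48 in KO MI (SD, n = 4), overlapping throughout, and passed in no comparison.

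Of 13 genes for CREB-type factors, their CRTC and p300/CBP coactivators and the kinases Sik2 and Sik3, 0 were DEGs in each of the 4 comparisons by edgeR or DESeq2, with medians between -0.09 and 0.06 and 1 to 3 of the 13 at an unadjusted p under 0.05, beside 12.4% to 26.2% of all genes. Crtc1, a CREB coactivator, was at 0.41 (SE 0.11) in KO SH compared to WT SH, opposite to the CREB-induced genes and under the minimum size. Of 27 genes for beta-adrenergic receptors, Gs, adenylyl cyclases, protein kinase A subunits and phosphodiesterases, 25 were tested. Among them Pde4c, a phosphodiesterase that degrades cyclic AMP, was lower in KO MI than in KO SH (-0.96, SE 0.19, adjusted p = 0.00492 by edgeR). It was the only DEG of the list there, beside 7.42% of all genes. Of the 25, 11 had an unadjusted p under 0.05 there, beside 26.2% of all genes, with 14 above 0 and 11 below. The adenylyl cyclase Adcy7 was at -0.50 (SE 0.16) in KO SH compared to WT SH, at the edge of the size threshold and under it without WT SH-2 (-0.45). No other gene of the list was a DEG in that comparison, beside 5.01% of all genes. An unadjusted p under 0.05 was found for 6 of 25 there, beside 22.8% of all genes. In the other 2 comparisons 0 of 25 were DEGs by edgeR or DESeq2, with 3 after MI in KO against WT and 2 after MI against sham in WT at an unadjusted p under 0.05, beside 12.4% and 16.5% of all genes. Of 10 genes for RXR partners of the NR4A receptors, class IIa histone deacetylases and MEF2 factors, Rxrg was lower in KO MI, compared to WT MI (-0.90, SE 0.26, adjusted p = 0.0991 by edgeR) and at -0.82 (SE 0.26) in KO SH compared to WT SH. Leaving out any 1 of 13 libraries ended the KO MI call for Rxrg, and its adjusted p by edgeR reached 0.279 without WT MI-4. In KO MI compared to KO SH and in WT MI compared to WT SH 0 of the 10 were DEGs by edgeR or DESeq2, with 6 and 3 at an unadjusted p under 0.05, beside 26.2% and 16.5% of all genes. The median log2 fold change of the 10 in KO MI compared to KO SH was -0.21, with 9 below 0. Over all lists (89 genes, not all of them tested), 7 genes were DEGs with lower levels in the KO MI than the WT MI hearts, beside 1.16% of all genes. Between KO SH and WT SH 13 were likewise lower, beside 2.53% of all genes. The 6 genes in both sets (Dusp1, Fos, Gem, Klf4, Rgs2 and Rxrg) made up 85.7% of the first set and 46.2% of the second. These comparisons share no library, but all 16 libraries entered the same fit with a shared estimate of the spread. Without KO SH-2, Fos and Rxrg lost their calls in KO MI compared to WT MI (adjusted p = 0.113 and 0.129 by edgeR). Over all genes, 139 were lower in both, 59.7% of the 233 lower in KO MI and 27.3% of the 510 lower in KO SH. The set of 7 fell to 3 when WT MI-1 was left out.

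Over the 16 libraries the 6 genes were positively correlated in all 15 pairs (Pearson r of log2 CPM from 0.48 for Nr4a3 and Crem to 0.96 for Nr4a1 and Sik1). The 4 WT SH libraries form a cluster of their own for most of these genes, and the pooled values hold that difference, so they are descriptions of the choice. Over the 12 libraries without WT SH, r was 0.79 for Nr4a1 with Sik1 (Spearman rho 0.86), 0.75 for Nr4a1 with Gm43605 (rho 0.85), 0.75 for Nr4a2 with Sik1 (rho 0.76) and 0.62 for Sik1 with Gm43605 (rho 0.73). It was 0.45 for Nr4a1 with Nr4a2, 0.31 for Nr4a2 with Gm43605 and -0.19 to 0.17 for Crem with these genes. For Nr4a3, r was 0.52 with Nr4a2 (rho 0.59), 0.03 with Nr4a1, 0.23 with Sik1, -0.29 with Gm43605 and -0.56 with Crem. All these values still hold the differences between KO SH, WT MI and KO MI. With the means of these groups subtracted, Nr4a1 gave 0.46 with Sik1 and 0.24 with Gm43605 over the 12 libraries. Likewise Sik1 gave 0.40 with Nr4a2 and 0.03 with Gm43605.

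With group means subtracted, only the differences between hearts of one group remain. The median r over the 15 pairs was then 0.23 (jackknife SE 0.20), with 11 of 15 above 0. The highest values were those of Nr4a3 with the other receptors, 0.63 for Nr4a1 with Nr4a3 (rho 0.60, and 0.64 without the 2 farthest libraries) and 0.62 for Nr4a2 with Nr4a3 (rho 0.45, and 0.38 without the 2 farthest). The remaining receptor pair, Nr4a1 with Nr4a2, gave 0.23 (rho 0.07). Nr4a1 and Sik1 gave 0.49, and Gm43605 gave 0.07 with both. Gm43605 and Nr4a3 gave the lowest value, -0.47. All points share library depth and RNA composition, and with 12 residual degrees of freedom values of this size are not precise.

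**Figure D5:**
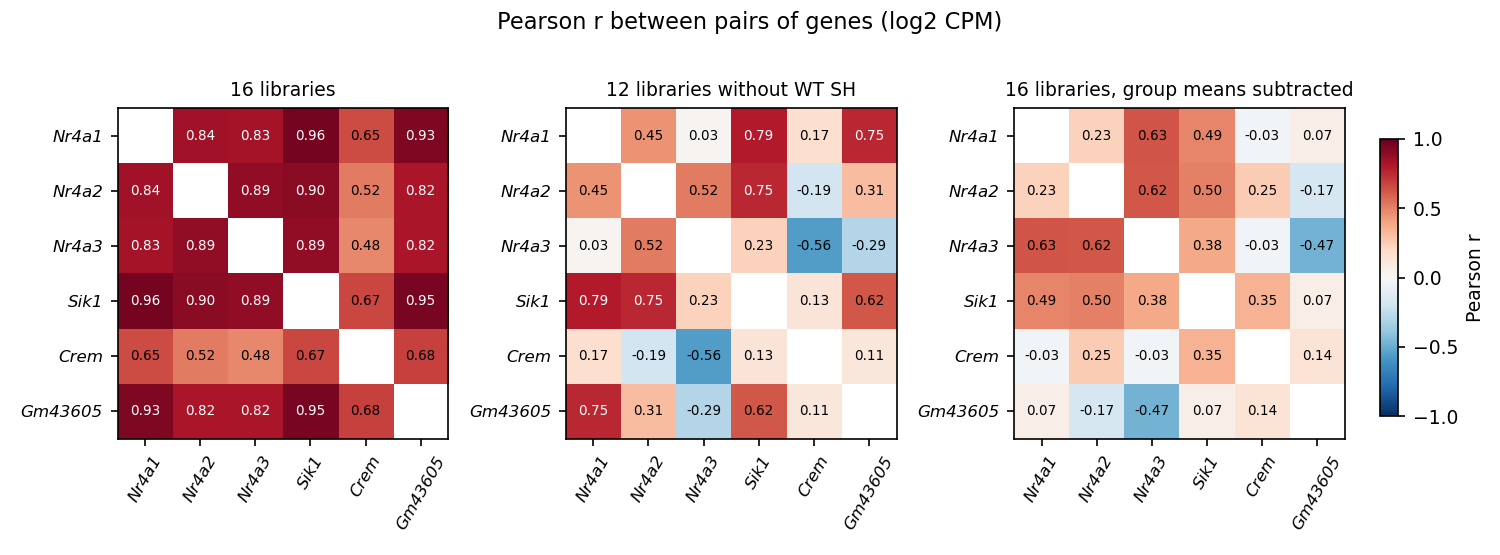
Pearson r of log2 CPM for the 15 pairs of genes over all 16 libraries (left), over the 12 libraries without WT SH (middle) and over 16 libraries with group means subtracted (right), on one color scale from -1 to 1. Pairs with Sik1 or Nr4a1 are above 0.6 on the left and fade to 0.63 or lower on the right, where the 2 highest values are those of Nr4a3 with Nr4a1 and with Nr4a2.

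The genes whose pattern over the 16 libraries was most like that of each gene were ranked by Pearson r among 14108 genes with a mean of at least 1 CPM. The nearest genes are named here with the 6 themselves left out. For Nr4a1 the nearest were Irs2 (0.975), the AP-1 factor Fosl2 (0.961) and Neat1 (0.960). For Sik1 they were Neat1 (0.981), Irs2 (0.959) and Magi2 (0.945), and for Gm43605 Neat1 (0.952), Gm42613 (0.949) and Irs2 (0.949). Irs2 and Neat1 thus recurred for these 3 genes. Both also stood apart in WT SH, and a ranking over all 16 libraries holds the difference that chose the genes, so it is a description. With the 6 genes counted in, Sik1 and Nr4a1 ranked 1 and 7 for Gm43605, and Nr4a1 and Gm43605 ranked 3 and 4 for Sik1. With group means subtracted, the same ranks were 6008 and 5960 for Gm43605, and 460 and 5829 for Sik1. Nr4a2 was most like Gem (0.944), Snrpn (0.922) and the collagen gene Col15a1 (0.919), and Nr4a3 like Trak1 (0.901), Optn (0.899) and Col15a1 (0.894). Crem was most like Gm42892 (0.913), Rgs5 (0.908), a pericyte gene, and Zkscan3 (0.905).

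With group means subtracted, Nr4a1 was nearest to Pdcd11 (0.845), Tenm3 (0.844) and again Irs2 (0.842), Nr4a2 to Adam17 (0.898), Cdca5 (0.861) and Nectin1 (0.854), and Nr4a3 to Timp3 (0.932), Nomo1 (0.871) and Capns1 (0.865). Sik1 was nearest to Mctp1 (0.867), Snx1 (0.814) and Tada3 (0.814), Crem to Gm45493 (0.851), Rbbp4 (0.834) and Gbp7 (0.823), and Gm43605 to Kmt2e (0.929), Cacna1d (0.917) and Tle2 (0.897). Irs2 was the one gene found near the same member, Nr4a1, by both measures.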

How the data were processed

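RNA-seq counts of 16 ventricle libraries (4 per group) were analysed. Per the labels and the methods, the authors aligned reads to GRCm39 and estimated expected counts per gene with RSEM, deposited without normalization. The methods name Skewer and STAR, the submitters' processing notes cutadapt 3.4, HISAT2 2.2.1 and RSEM 1.1.17, and the annotation release was not given in the sources used here. Symbols came from GENCODE M39, which matched 47772 of 51912 identifiers (the unmatched held 0.57% to 0.786% of counts).

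Expected counts were rounded and fitted with edgeR 4.0.16 in R 4.3.3 (quasi-likelihood F-test, TMM, all 16 libraries, 1 coefficient per group, only genes whose counts summed to 10 or more within every group, Benjamini-Hochberg over 20159 genes). DESeq2 1.42.0 was an alternative. The DEG thresholds (0.1 for the adjusted p, 0.5 for the size of the log2 fold change) follow the study's methods. The edgeR steps were tested on simulated data. Exact permutation tests used log2(CPM + 0.05) in scipy 1.17.1, and correlations log2 CPM with a prior count of 2. No 2 libraries were identical (highest correlation 0.9877). mt-Rnr2 took 29.8% to 37.6% of counts, and intervals reflect the spread between libraries.

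The 6 genes and all lists were chosen with earlier results of these data known. Named genes were the 6, up to 3 DEGs of each list and comparison with the smallest p, and the 3 nearest genes by correlation. Ppargc1a and Fos after MI, Nfil3, Egr1, Crtc1 and Malat1 were named after their values were seen. Promoter windows came from RefSeq (GRCm38.p6) and were searched on both strands. Alternatives covered the tool, normalization, filter, thresholds, sex, replicate block and each library left out.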

Additional observations from a re-analysis of the deposited data

Results flagged for a closer look

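The mean difference of Nr4a3 between MI and sham went opposite ways in the 2 genotypes. On the scale of log2(CPM + 0.05), the mean difference between WT MI and WT SH was -2.09, with all 4 WT MI libraries below the WT SH mean, and that between KO MI and KO SH was 0.80, with all 4 KO MI libraries above the KO SH mean. The rise in KO rested on single libraries, with an adjusted p by edgeR of 0.146 without KO SH-1 and 0.209 without KO MI-2. The difference between the 2 responses was not tested, because WT SH chose the gene.

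Within groups, 2 of 24 sets of 4 libraries had a library far from the other 3 by Dixon's criterion, which chance meets in about 1 in 20 sets. Both concerned Sik1: KO SH-1 was low at 15.4 CPM (its gap to the next library was 0.871 of the group's range) and WT MI-4 was high at 27.3 CPM (0.846).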

How the results depend on the processing

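Of the 6 genes, 2 were DEGs in KO MI vs WT MI and 1 when only these 2 groups were fitted, with 1 to 2 when single libraries were left out. In KO MI vs KO SH there were 2, with 1 to 3 when single libraries were left out. In KO SH vs WT SH there were 5 in every such fit, and in WT MI vs WT SH 4 to 5. The list genes called in KO MI vs WT MI numbered 7, but 4 in a robust fit, 3 at an adjusted p under 0.05, 12 without a minimum fold change and 3 to 8 with single libraries left out. In KO MI vs KO SH they numbered 4, but 17 without a minimum fold change and 4 to 10 with single libraries left out. In KO SH vs WT SH they numbered 13, but 22 without a minimum fold change and 8 to 13 with single libraries left out (8 without WT SH-1). In WT MI vs WT SH they numbered 3, but 6 with only the 2 groups, 5 with sex as a covariate, 7 without a minimum fold change and 3 to 4 with single libraries left out. The alternatives for list genes, other than DESeq2, were chosen after the data were seen, and the causes were not tested. Values near 0 changed sign in KO MI vs WT MI: with single libraries left out, Crem ranged from -0.11 to 0.056 (above 0 without WT MI-4 or KO MI-7) and Nr4a3 from -0.20 to 0.20 (below 0 without WT MI-3 or KO MI-2). The median within-group correlation stayed between 0.12 and 0.32 with single libraries left out. Replicate numbers did not mark pairs (same-numbered libraries' deviations correlated at -0.038 to 0.112). With the replicate block, 8 list genes were called in KO MI vs KO SH, Crem in KO MI vs WT MI was 0.077, and the number of the 6 genes called stayed at 2 in both KO MI comparisons. Replicate number 7 occurs only in KO MI-7, so in that fit this library adds nothing to the KO MI contrasts.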
